A study of Mus musculus with 6 samples.

Results

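The opioid genes measured here were the 4 opioid receptor genes Oprm1, Oprd1, Oprk1 and Oprl1 and the 3 opioid precursor genes Penk, Pdyn and Pnoc, in dorsal root ganglia of mice whose dams had or had not been stressed in late pregnancy. They were taken by gene symbol, and all 7 were found among the 55809 symbols counted. The prenatal stress (PS) pools came from 8-week-old C57BL6J offspring of dams held in tubes under bright light for 30 minutes, 3 times daily. The labels start the stress at embryonic day 13 in one place and at day 13.5 in another, and end it at E18 or E18.5. The control (CT) pools came from offspring of undisturbed dams, of the same strain and age. Each group had 3 libraries, and each library was a pool of 3 mice. The series design gives 9 mice per group, while the treatment text gives 3 mice per group, so whether each pool holds separate mice rests on the sample titles and the design. The labels give no litter or sex for a pool, so p-values measure the spread between pools.

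Opioid receptors are receptors coupled to inhibitory G proteins. In sensory neurons they lower cyclic AMP, close voltage-gated calcium channels and so reduce transmitter release from the central terminals, which is how opioids act on pain at the first synapse. The receptors respond to short peptides that are cut from larger precursors at pairs of basic residues: enkephalins from Penk, dynorphins and neoendorphins from Pdyn, and nociceptin from Pnoc. Oprm1 encodes the mu receptor, the main target of morphine, Oprd1 the delta receptor, Oprk1 the kappa receptor, and Oprl1 the nociceptin receptor, which classical opioids do not bind well. Enkephalins act mainly on delta and mu receptors and dynorphins on kappa receptors, while nociceptin acts on its own receptor.

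The coding sequence of each precursor shows which of these peptide sequences its transcript encodes. The stretches below are from GENCODE M21 on GRCm38, 5′ to 3′ in the sense of the transcript. Capitals mark the codons of the enkephalin pentapeptide in Penk and Pdyn, and of the nociceptin start in Pnoc. The lower case codons before them encode the pair of basic residues where the precursor is cut.
Penk, first Met-enkephalin: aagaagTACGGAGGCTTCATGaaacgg
Penk, Leu-enkephalin: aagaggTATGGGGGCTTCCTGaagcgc
Pdyn, first Leu-enkephalin core: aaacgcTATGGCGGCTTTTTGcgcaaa
Pnoc, nociceptin start: aaaaggTTTGGGGGCTTCaccggg
The Penk stretches lie on the minus strand in exon 2 of 2, at chr4:4134328-4134354 and chr4:4133935-4133961. The Pdyn stretch lies at chr2:129688232-129688258 on the minus strand, in exon 4 of 4. The Pnoc stretch lies at chr14:65404875-65404898 on the minus strand, in exon 3 of 4. The Penk reading frame of 268 codons held 6 copies of the Met-enkephalin sequence and 1 of Leu-enkephalin, 7 enkephalin copies in all. The Pdyn frame of 248 codons held 3 Leu-enkephalin cores and 0 of Met-enkephalin. The Pnoc frame of 212 codons held 1 nociceptin start, and 0 copies of either enkephalin. Each of these copies followed a pair of basic codons. The codons after each copy were not checked, so these are counts of encoded sequences, not of released peptides.

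The 4 receptors are close relatives, and the stretches below encode the conserved motif at the end of their last membrane span. They were picked because their residues are conserved, so their likeness does not stand for that of whole transcripts. Capitals mark the 5 codons of the motif.
Oprm1: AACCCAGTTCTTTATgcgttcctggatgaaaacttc
Oprd1: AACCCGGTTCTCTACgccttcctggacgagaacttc
Oprk1: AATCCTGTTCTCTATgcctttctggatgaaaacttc
Oprl1: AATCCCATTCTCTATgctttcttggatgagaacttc
In GRCm38 these lie at chr10:6830333-6830368 (plus strand, Oprm1 exon 3 of 4), chr4:132113671-132113706 (minus strand, Oprd1 exon 3 of 3), chr1:5602617-5602652 (plus strand, Oprk1 exon 4 of 4) and chr2:181719167-181719202 (plus strand, Oprl1 exon 4 of 4). Over these 36 bases the receptor pairs shared 29 to 31 bases. Over whole transcripts, 0% to 0.229% of the 31-base words of a receptor gene also occurred in a transcript of another gene, and the precursors ranged from 0% for Penk and Pdyn to 1.16% for Pnoc. These shares count exact matches between annotated transcripts only. They do not cover near-identical or unannotated sequence, so they are no bound on reads shared with another gene. An exon of Oprm1 overlaps Ipcef1 on the opposite strand, which had 91 to 215 counts per pool. Penk overlaps A830012C17Rik on the opposite strand, which had 0 to 5 counts.

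Depth was 51.7 to 77.6 M gene counts in PS pools and 65.0 to 87.4 M in CT pools. The 12 markers of neurons all passed the filter on low counts and summed to 8930 to 9150 CPM (counts scaled to library size) in PS pools and 9270 to 9500 CPM in CT pools. Some pools also held RNA of neighbouring tissue. Markers of spinal cord glia (12 of 12 tested) summed to 211 to 563 CPM in PS pools and 205 to 473 CPM in CT pools, led by Aldoc and Mobp. Aldoc stood at 153 to 207 CPM in every pool, while Mobp ranged from 14.4 to 131 CPM. The lowest sums, in PS pool 1 and CT pool 1, held 153 and 154 CPM of Aldoc. Markers of spinal neurons (12 of 12 tested), some of which ganglion neurons also express, summed to 333 to 366 CPM in PS pools and 345 to 401 CPM in CT pools, led by Slc17a6 at 275 to 313 CPM. The spinal glycine transporter Slc6a5 had 0.659, 14 and 1.34 CPM in PS pools 1 to 3 and 0.404, 25 and 6.33 CPM in CT pools 1 to 3. The myelin gene Mog of oligodendrocytes had 0.504, 9.92 and 1.36 CPM in PS pools 1 to 3 and 0.259, 7.56 and 5.99 CPM in CT pools 1 to 3. PS pool 2, CT pool 2 and CT pool 3 thus held the most spinal RNA. Among these markers Lhx5 was at 0 in PS pool 3 and CT pool 1, and Tfap2b in PS pool 1. Skeletal muscle markers summed to 2560 CPM in CT pool 3 and to 76.9 to 116 CPM in the other 5 pools; Myh4, a fast myosin, had 711 CPM in that pool and 2.55 to 8.56 CPM in the others.

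All 7 opioid genes were detected in every pool, with 2547 to 4632 counts per pool in sum, and all 7 passed the filter. Per kb of annotated exon, Penk and Oprl1 had the highest means over the 6 pools. Penk averaged 5.42 ± 3.41 CPM per kb in PS pools and 6.41 ± 0.773 CPM per kb in CT pools, and Oprl1 averaged 5.32 ± 0.51 CPM per kb in PS pools and 5.56 ± 0.24 CPM per kb in CT pools (SD, n = 3 each). These neighbours in the order overlapped. Oprd1 followed at 3.83 ± 0.497 CPM per kb in PS pools and 2.78 ± 0.64 CPM per kb in CT pools, below Oprl1 in all 6 pools. It overlapped Penk: in PS pool 3 Oprd1 had 4.33 and Penk 3.4 CPM per kb, and the PS mean of Penk rests on PS pool 2 at 9.36 CPM per kb.
The kappa and mu receptors were lower on this scale. Oprk1 averaged 0.411 ± 0.0226 CPM per kb in PS pools and 0.42 ± 0.0772 in CT pools, and Oprm1 averaged 0.403 ± 0.0604 CPM per kb in PS pools and 0.317 ± 0.0562 in CT pools. Pnoc averaged 0.236 ± 0.122 CPM per kb in PS pools and 0.26 ± 0.116 in CT pools, and Pdyn 0.243 ± 0.221 in PS pools and 0.166 ± 0.122 in CT pools. Oprk1 and Oprm1 overlapped, and so did Pnoc and Pdyn. The order of Oprk1 and Oprm1 depended on the length used: per kb of the longest transcript Oprm1 averaged 1.34 ± 0.2 CPM in PS pools and 1.05 ± 0.187 CPM in CT pools, above Oprk1 at 0.804 ± 0.0442 CPM in PS pools and 0.823 ± 0.151 CPM in CT pools. On that scale Oprm1 was also closer to Oprd1, which averaged 3.83 ± 0.497 CPM in PS pools and 2.78 ± 0.64 CPM in CT pools. Oprm1 has 31 annotated transcripts, of 2420 bases or less each, whose exons together cover 8037 bases.

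**Figure D1:**
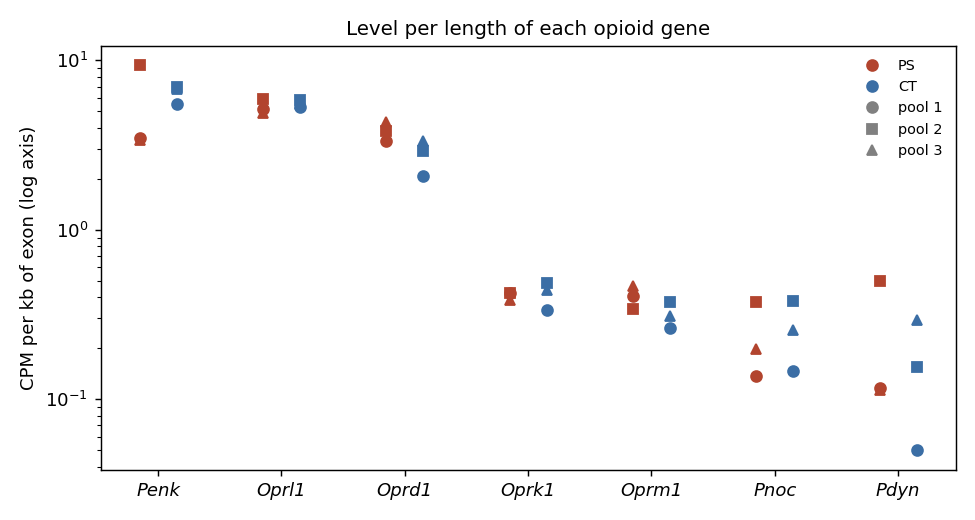
Level of each opioid gene per kb of annotated exon (CPM per kb, log axis) in each pool, PS left of CT, genes ordered by their mean over the 6 pools. Penk, Oprl1 and Oprd1 lie between 2.08 and 9.36 CPM per kb and the other 4 genes between 0.0499 and 0.499 CPM per kb.

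The comparison asked whether opioid transcripts in ganglia of grown offspring differ by the treatment of the dam. None of the 7 opioid genes passed edgeR's quasi-likelihood test with Benjamini-Hochberg adjustment over the 20146 genes tested, where 0.129% of genes were called in either direction. DESeq2's Wald test called none of the 5 members to which it gave an adjusted p; it gave none to Pdyn and Pnoc. At an unadjusted p under 0.05 there was 1 of 7, Oprd1, where 11.1% of all genes passed, and the PS and CT values overlapped for all 7, where 18.1% of all genes separated the groups. The members had a median log2 fold change of -0.03, with 3 positive and 4 negative values, beside 0.01 over all genes. Regardless of sign, the median was 0.25 for the members and 0.08 over all genes. How far this reflects the spread between pools was not tested.

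Of the receptors, Oprd1 and Oprm1 had higher means in PS pools, and Oprk1 and Oprl1 stood near level. Oprd1 had 13.4, 15.4 and 17.4 CPM in PS pools 1 to 3 and 8.36, 11.8 and 13.4 CPM in CT pools 1 to 3. The lowest PS pool stood level with the highest CT pool, and CT pool 1 was the lowest of the 6. The mean was 15.4 ± 1.99 CPM in PS pools and 11.2 ± 2.57 CPM in CT pools (SD, n = 3 each), a log2 fold change of 0.46 ± 0.17 (SE) with an edgeR p of 0.0323 before and 0.416 after adjustment. The 95% interval of the fold ran from 1.04 to 1.82. The log2 fold change was 0.29 without CT pool 1 and 0.61 without CT pool 3, the pool with muscle RNA, and the adjusted p ranged from 0.0939 to 0.796 over 18 alternatives. The PS pool of each replicate number was above the CT pool of the same number, by 1.6, 1.31 and 1.3 times.

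Oprm1 had 3.25, 2.75 and 3.72 CPM in PS pools 1 to 3 and 2.12, 3.02 and 2.51 CPM in CT pools 1 to 3. PS pools 1 and 3 were above every CT pool, and PS pool 2 lay within the CT range. The log2 fold change was 0.34 ± 0.17 (adjusted p = 0.505), and the interval of the fold ran from 0.96 to 1.68. The value was 0.23 without CT pool 1, 0.23 without PS pool 3 and 0.59 without both pools numbered 2. Oprd1 exceeded Oprm1 by 4.12, 5.62 and 4.67 times in CPM in PS pools and by 3.95, 3.91 and 5.33 times in CT pools, and these ratios, which are not per length, overlapped.

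Oprk1 had 3.85, 3.9 and 3.52 CPM in PS pools and 3.07, 4.45 and 4.02 CPM in CT pools. The PS values lay within the CT range, with a log2 fold change of -0.03 ± 0.15 (adjusted p = 0.958) and an interval of the fold from 0.769 to 1.24. Leaving out pools gave values from -0.192 to 0.078. Oprl1 was the steadiest member, at 19.4, 22.1 and 18.4 CPM in PS pools and 20, 21.8 and 20.8 CPM in CT pools. PS pool 2 was its highest and PS pool 3 its lowest value. Its log2 fold change was -0.06 ± 0.08 (adjusted p = 0.822), and the interval of the fold ran from 0.847 to 1.08. Leaving out 1 pool or both pools of a number moved it between -0.15 (without PS pool 2) and -0.01 (without PS pool 3).
Over the 6 pools the highest value of Oprl1 was 1.2 times its lowest, against 1.45 times for Oprk1, 1.76 for Oprm1 and 2.08 for Oprd1.

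Marker lists of sensory neuron classes and satellite glia are given beside the receptors. Of 10 markers of nonpeptidergic nociceptors, 9 had positive values, 7 of them at an unadjusted edgeR p under 0.05 (11.1% of all genes, either direction), and 0 were called, with sums of 2210 to 2460 CPM in PS pools and 2070 to 2200 CPM in CT pools; the most abundant, the sodium channel gene Scn11a, stood at 0.15 ± 0.05 (adjusted p = 0.38) and the next, Cd55, at 0.10 ± 0.05. Of 10 markers of peptidergic nociceptors, 9 had negative values, 6 of them at an unadjusted edgeR p under 0.05 (11.1% of all genes), and 0 were called, with sums of 2100 to 2150 CPM in PS pools and 2320 to 2540 CPM in CT pools. Calca, the precursor gene of CGRP and the most abundant of them, stood at -0.22 ± 0.06 (adjusted p = 0.322). Pruriceptor markers split 5 positive to 5 negative, with 1 called lower, the neuropeptide gene Nts (-1.22 ± 0.13, edgeR adjusted p = 0.0297). Of 11 tested markers of myelinated neurons 6 had positive values, 4 of them at an unadjusted edgeR p under 0.05 (11.1% of all genes), and 0 were called. Of 6 tested markers of C-fibre low-threshold mechanoreceptors 5 had positive values, 2 of them at an unadjusted edgeR p under 0.05, and 0 were called. Of 10 satellite glia markers 9 had negative values, 4 of them at an unadjusted edgeR p under 0.05 (11.1% of all genes), and 0 were called. Their sums were 2910 to 3210 CPM in PS pools and 3270 to 3630 CPM in CT pools. These sums did not overlap between groups, nor did those of the nonpeptidergic, peptidergic and general neuron markers. The part of these cell types in the Oprd1 and Oprm1 values was not tested. In pooled tissue fewer cells of a type and less RNA per cell cannot be told apart.

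**Figure D2:**
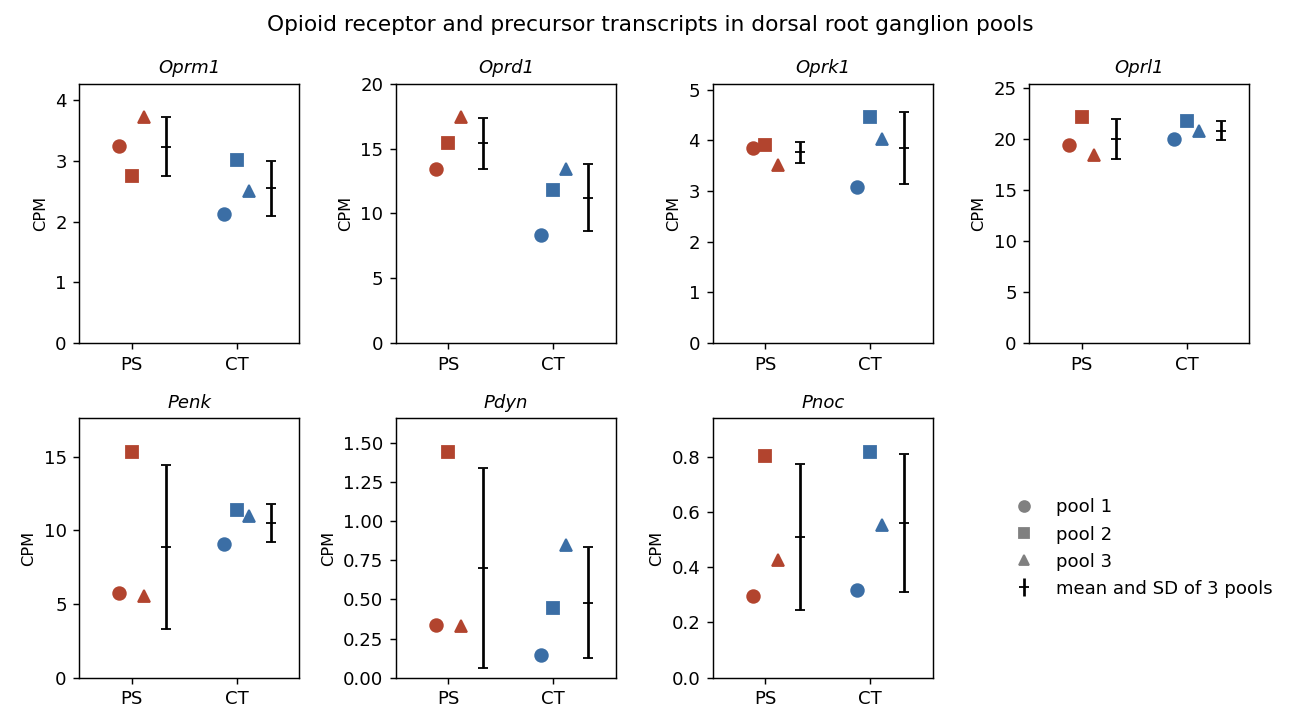
CPM of each opioid gene in the 3 PS pools and the 3 CT pools (PS left; symbols give the pool number; the bar is the mean and SD of 3 pools, each axis from 0). Oprd1 reaches 17.4 CPM in PS pool 3 and 8.36 CPM in CT pool 1, and PS pool 2 stands above the other PS pools for the 3 precursors.

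Over the 6 pools the highest value was 2.75 times the lowest for Penk and Pnoc and 10 times for Pdyn, while among CT pools alone Penk, with a coefficient of variation of 12.3%, varied less than Oprd1 (23%), Oprk1 (18.4%) and Oprm1 (17.7%). Penk had 5.72, 15.3 and 5.56 CPM in PS pools 1 to 3 and 9.04, 11.4 and 11.0 CPM in CT pools 1 to 3. PS pool 2 was the highest of the 6 and PS pools 1 and 3 the lowest. The mean was 8.85 ± 5.56 CPM in PS pools and 10.5 ± 1.29 CPM in CT pools (SD, n = 3 each), with a log2 fold change of -0.25 ± 0.38 (adjusted p = 0.859). PS pool 2 decided this value: without it the log2 fold change was -0.90 ± 0.12 (edgeR adjusted p = 0.15), and without both pools numbered 2 it was -0.83 (edgeR adjusted p = 0.618). Without PS pool 1 or PS pool 3 it was -0.02 and -0.01. Over the 18 alternatives the adjusted p ranged from 0.15 to 0.993.

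Pdyn had 26, 95 and 17 counts in PS pools 1 to 3 and 10, 29 and 74 counts in CT pools 1 to 3. That is 0.336, 1.44 and 0.329 CPM in PS pools and 0.144, 0.447 and 0.849 CPM in CT pools, a 10-fold range across the 6 pools. PS pool 2 and CT pool 3 stood apart from the rest. The log2 fold change of 0.53 ± 0.74 (adjusted p = 0.843) was -0.55 without PS pool 2, 1.26 without CT pool 3 and 0.11 without CT pool 1. At this spread the interval of the fold ran from 0.433 to 4.8.
Pnoc had 23, 53 and 22 counts in PS pools and 22, 53 and 48 counts in CT pools. The corresponding CPM were 0.297, 0.804 and 0.426 in PS pools and 0.317, 0.816 and 0.551 in CT pools. The pools numbered 2 were the highest of each group. The log2 fold change was -0.14 ± 0.45 (adjusted p = 0.94). It was -0.65 without PS pool 2, -0.42 without CT pool 1, 0.21 without CT pool 2 and 0.15 without PS pool 1. By replicate number, the PS pool was 0.937, 0.985 and 0.774 times the CT pool in CPM. The counts were 23 and 22 in the pools numbered 1 and 53 in both pools numbered 2. Those 2 ratios are thus below 1 only after scaling to library size. With the replicate block the value was -0.15 ± 0.20 (edgeR adjusted p = 0.807).

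**Figure D3:**
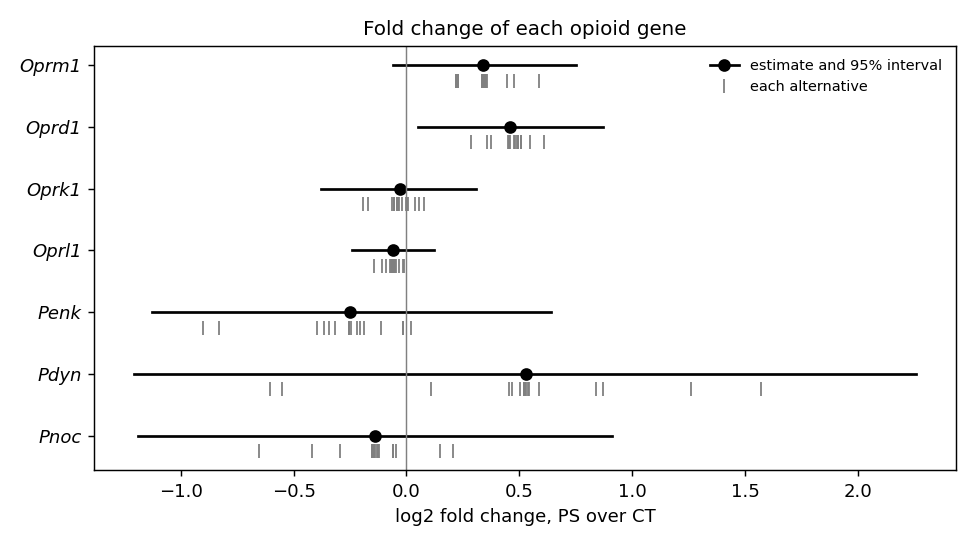
Log2 fold change of each opioid gene, PS over CT, with its 95% interval (black), and the value under each of 18 alternatives (grey ticks). The intervals of the receptors are narrower than those of the precursors, and only that of Oprd1, 0.05 to 0.87, leaves out 0 before adjustment.

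The precursors moved between pools with the spinal markers. The mean log2 level of the spinal glia and neuron markers was 0.52, 3.14 and 1.05 in PS pools 1 to 3 and 0.22, 2.75 and 2.35 in CT pools 1 to 3. Penk, Pdyn and Pnoc each had their 3 highest values in the 3 pools with the highest marker level, PS pool 2, CT pool 2 and CT pool 3. Of the receptors, Oprl1 and Oprk1 did so as well, by smaller steps, while the highest Oprd1 and Oprm1 values were in PS pool 3, which had a low marker level. Because the marker levels fall into a low and a high set of pools, no correlation of a gene with the marker level is given.
With the marker level as a covariate, chosen after the data were seen, the log2 fold change was 0.51 ± 0.15 for Oprd1 (edgeR adjusted p = 0.382), 0.35 ± 0.19 for Oprm1 (edgeR adjusted p = 0.524) and -0.32 ± 0.23 for Penk (edgeR adjusted p = 0.629). The standard error of Pnoc was 0.20 in that fit and 0.45 without the covariate, and that of Pdyn was 0.37 and 0.74. With the replicate block in place of the covariate they were 0.20 for Pnoc and 0.58 for Pdyn. A smaller error is thus not particular to the marker level, and what lowered it was not tested. All 7 stayed uncalled. Among the 3 pools of low marker level Penk had 5.72 and 5.56 CPM in PS pools and 9.04 CPM in CT pool 1. Among the 3 pools of high marker level it had 15.3 CPM in PS pool 2 and 11.4 and 11.0 CPM in CT pools, so the direction was not the same in both sets.

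**Figure D4:**
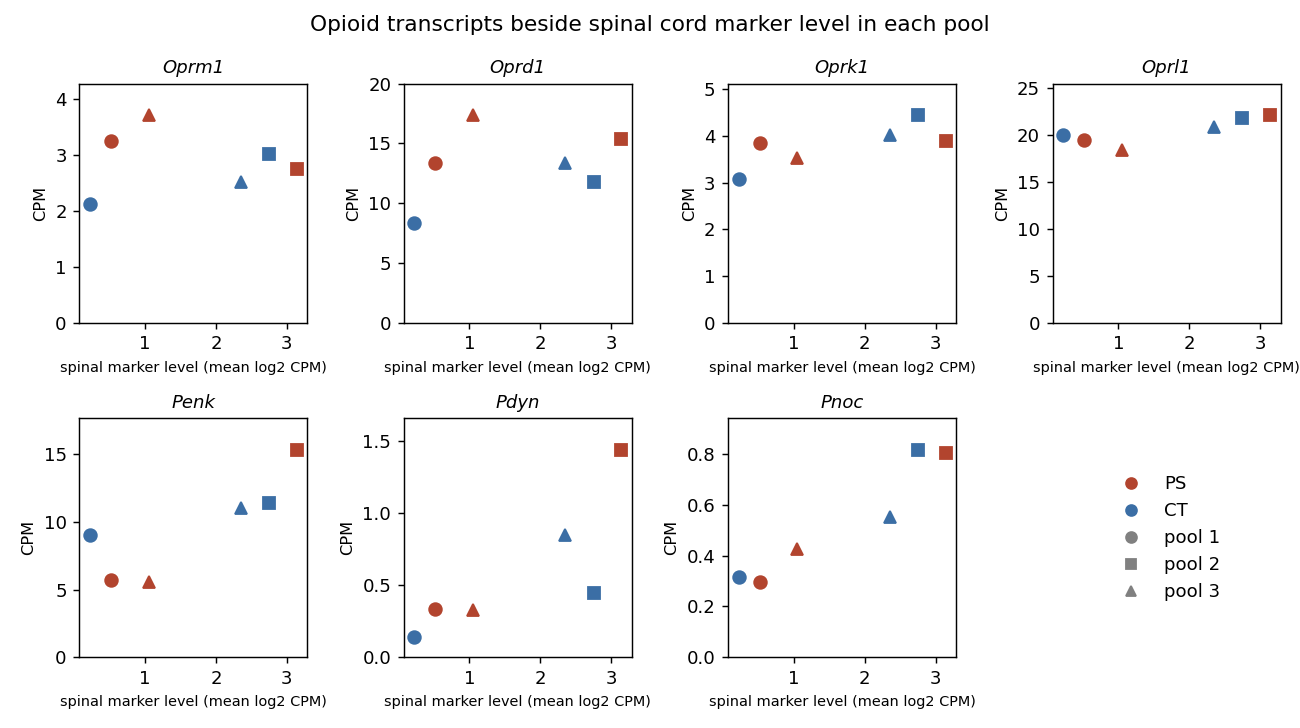
CPM of each opioid gene (vertical axis, from 0) against the mean log2 CPM of the spinal cord glia and neuron markers (horizontal axis), 1 point per pool, PS in red and CT in blue. Penk, Pdyn and Pnoc are highest in the 3 pools with marker levels of 2.35 to 3.14, while Oprd1 and Oprm1 peak in PS pool 3 at 1.05.

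Around the members, 7 lists covered peptide processing and breakdown, receptor coupling and other inhibitory receptors. Of 66 listed symbols 64 were in the files, the other 2 being older names of Grk2 and Grk3, and 62 passed the filter. Of these, 1 rose and 0 fell at an adjusted p under 0.05, where 0.0844% of all genes were called higher. At an unadjusted p under 0.05 there were 7 positive and 4 negative genes, or 17.7%, beside 11.1% of all genes, and 17 of 62 separated the groups, or 27.4%, beside 18.1%. The median log2 fold change of the 62 was 0.04.

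The gene that rose was Pcsk1n, which encodes proSAAS, an inhibitor of prohormone convertase 1. It had 80.4, 87.5 and 73.8 CPM in PS pools and 40.6, 44.2 and 46.6 CPM in CT pools (0.88 ± 0.07, edgeR adjusted p = 0.0113). Every PS pool was above every CT pool, and the call was lost without CT pool 2 (edgeR adjusted p = 0.0768) and without PS pool 1 (edgeR adjusted p = 0.0683). The convertases that cut opioid precursors did not pass. Pcsk1, which encodes prohormone convertase 1, had 80.5 to 86.5 CPM in PS pools and 85.5 to 87.2 CPM in CT pools (-0.06 ± 0.04). Pcsk2 had 244 to 249 CPM in PS pools and 252 to 263 CPM in CT pools (-0.07 ± 0.03). Carboxypeptidase E (Cpe), which trims the basic residues left after the cut, stood at -0.04 ± 0.03. Cathepsin L (Ctsl), which can also process proenkephalin, was the most abundant of the list at 957 to 1030 CPM in PS pools and 1040 to 1100 CPM in CT pools (-0.13 ± 0.04, adjusted p = 0.366).
Of 7 peptidases that break opioid peptides down, 0 were called (0.129% of all genes). An unadjusted edgeR p under 0.05 (11.1% of all genes) was found for 1 of them. This was Dpp3, an enkephalin-degrading dipeptidyl peptidase (-0.08 ± 0.03, edgeR adjusted p = 0.443). Ece1 stood at -0.08 ± 0.04, and the most abundant, Npepps, at 0.05 ± 0.03. The remaining precursor, Pomc, which yields beta-endorphin, was at 0.504 to 0.555 CPM in PS pools and 0.461 to 0.7 CPM in CT pools (-0.14 ± 0.21). The receptor of the opioid growth factor, Ogfr, which is unrelated in sequence to the classical receptors, had 30.9 to 32.4 CPM in PS pools and 33.5 to 35.3 CPM in CT pools (-0.11 ± 0.04, adjusted p = 0.378).

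Among the genes through which the receptors signal, none passed edgeR's adjusted test, which called 0.129% of all genes. Of 8 G protein subunits 0 were called and 0 had an unadjusted edgeR p under 0.05 (11.1% of all genes). Gnao1, the most abundant, stood at 0.04 ± 0.05, Gnai1 at 0.04 ± 0.03 and Gnb5 at -0.07 ± 0.03. Of 11 tested channels and cyclases 8 had positive values and 0 were called.
Adcy1, an adenylyl cyclase stimulated by calcium, had 107, 108 and 112 CPM in PS pools and 88.0, 96.7 and 93.3 CPM in CT pools (0.23 ± 0.04, edgeR adjusted p = 0.195). Its groups did not overlap, and it was called by the DESeq2 Wald test alone (adjusted p = 0.000953, range over 18 alternatives 0.000953 to 0.796). Kcnj6, a subunit of the G protein-gated potassium channel that mu receptors open, had 1.76, 1.7 and 1.84 CPM in PS pools and 1.27, 1.2 and 1.32 CPM in CT pools (0.48 ± 0.12, adjusted p = 0.294), again without overlap. Cacna2d1, the gabapentin-binding calcium channel subunit and the most abundant of the list, stood at -0.10 ± 0.07, at -0.04 without PS pool 2 and at -0.18 without PS pool 3.
Of 10 genes of receptor desensitization and G protein regulation 0 were called. The kinase Grk5 stood at 0.15 ± 0.05 (adjusted p = 0.369), Grk2 at 0.11 ± 0.05 and Rgs4, the most abundant, at 0.05 ± 0.06.

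Of 16 tested inhibitory receptors other than opioid receptors, 12 had positive values and 0 were called, with 4 higher and 1 lower in every PS pool than in any CT pool, where 18.1% of all genes separated the groups. At an unadjusted edgeR p under 0.05 there were 2 positive and 1 negative, where 11.1% of all genes passed in either direction. Gabbr2, a subunit of the GABA-B receptor, had 209, 209 and 208 CPM in PS pools and 192, 194 and 195 CPM in CT pools (0.11 ± 0.03, edgeR adjusted p = 0.277). It was called by DESeq2 (adjusted p = 0.0213, range over 18 alternatives 0.0213 to 0.796). The metabotropic glutamate receptor Grm7 had 73.6, 73 and 77.5 CPM in PS pools and 64.1, 69 and 66.4 CPM in CT pools (0.17 ± 0.04, adjusted p = 0.279). The partner subunit Gabbr1, the most abundant of the list, stood at 0.01 ± 0.03.

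**Figure D5:**
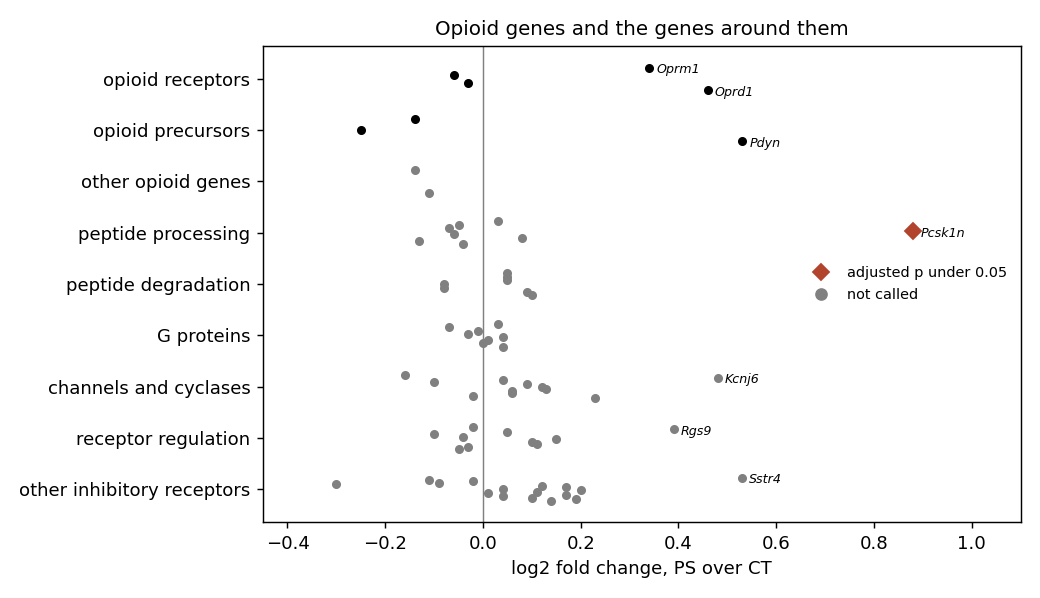
Log2 fold change, PS over CT, of the 7 opioid genes (black) and of the genes of the 7 lists around them (grey), 1 point per gene. Pcsk1n at 0.88 (red diamond) is the 1 gene past the adjusted p of 0.05, and Oprm1, Oprd1, Pdyn, Kcnj6, Rgs9 and Sstr4 lie above 0.3 without passing.

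The genes whose log2 CPM followed each member most closely over the 6 pools were picked among 11606 or 11607 genes of at least 5 CPM, so the highest values of r are large by selection and carry no p. For Oprd1 they were Atxn1l (Pearson r = 0.997), Gpatch8 (0.997) and Mcm3ap (0.994). Their own range was narrow: Gpatch8 had 94.1 to 103 CPM in PS pools and 79.4 to 95.7 CPM in CT pools. For Oprm1 they were Zfp974 (0.995), Dzip3 (0.994) and Lonrf2 (0.991), for Oprl1 Grid1 (0.993), Ntm (0.993) and Tst (0.99), and for Oprk1 Mical3 (0.976), Trp53bp2 (0.976) and Fads6 (0.972).
For Penk they were Ccdc184 (0.986), Slc48a1 (0.982) and Efhd2 (0.982), and for Pdyn Snapc4 (0.974), Ankrd52 (0.971) and Snx24 (0.971). These genes also varied less than the precursors. Slc48a1 had 145 to 153 CPM over the 6 pools, Snapc4 27.4 to 32 CPM and Ankrd52 205 to 230 CPM. For Pnoc the closest genes were Ppm1f (0.995), Psd2 (0.994) and Nlgn1 (0.993). Psd2 had its highest values in the same 3 pools as Pnoc, with 3.89, 9.16 and 4.94 CPM in PS pools and 3.79, 9.15 and 6.92 CPM in CT pools. Among the members, Oprl1 and Penk had the highest r over the 6 pools (0.95), followed by Oprl1 and Pnoc (0.81). All of Oprl1, Penk and Pnoc had their 3 highest values in the same 3 pools, those of high spinal marker level. These r values therefore share that split of the pools.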

How the data were processed

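Stranded, poly-A selected libraries of dorsal root ganglion pools were sequenced, per the labels. The deposited values are raw counts per gene symbol. FastQC, STAR 2.4 and HTSeq 0.9.1, and the builds GRCm39 and mm10, are named in the submitters' processing notes; which of these was counted on, and the strand setting, is not given in the sources used here. Reads given to no gene, 15.3% to 16.2% of each file, were left out.

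Counts were tested with edgeR 4.0.16 (R 4.3.3; TMM, filterByExpr with a minimum count of 10, quasi-likelihood F test, PS against CT, Benjamini-Hochberg over 20146 genes). CPM use TMM factors. Intervals are 95% and unadjusted. Alternatives used DESeq2 1.42.0, other scaling or filtering, a replicate block, left-out pools, a GC content and length correction, and a marker covariate. Lengths, coordinates and sequences come from GENCODE M21 (GRCm38), whose gene models may differ from those counted. Likeness used log2 CPM (prior count 2).

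The members and lists were chosen with earlier results of these data known. Named genes were the 7 members, called genes, the 2 of smallest p and the most abundant of each pathway list, the most abundant of cell type lists (some are not reported here), and the 3 genes most like each member. Cpe, Pcsk1, Pcsk2, Nts, Slc6a5, Mog, Lhx5 and Tfap2b, and the genes labelled in the plot of lists, were named outside that rule after their values were seen. Pools of the same replicate number deviated together from their group means across genes (r = 0.34, 0.22 and 0.13 for numbers 1 to 3). Pools of different numbers had r from -0.3 to 0.12, the highest for PS pool 2 with CT pool 3. The labels state no pairing, so the reported fit was unpaired and the replicate block was an alternative. Whether the numbers mark a real pairing was not tested. No 2 libraries agreed within sampling noise (chi-square per degree of freedom 10.98 to 36.41 over 15 pairs).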

Additional observations from a re-analysis of the deposited data

How the results depend on the processing

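Over 18 alternatives the 7 members gave 126 values, 124 of them with an adjusted p, of which 0 were called; of the 126, 115 kept their sign and 11 changed it. With the replicate number as a block 0 of 7 members were called; Oprd1 stood at 0.48 ± 0.08 (edgeR adjusted p = 0.16), and 22 genes were called in all. With a GC and length correction and the replicate block together, Oprd1 stood at 0.50 (edgeR adjusted p = 0.0939). Oprk1 was 0.005 with the spinal marker covariate. Leaving out 1 pool, or both pools of 1 number, gave ranges of -0.192 to 0.078 for Oprk1, -0.146 to -0.013 for Oprl1, -0.901 to 0.022 for Penk, -0.606 to 1.57 for Pdyn and -0.652 to 0.207 for Pnoc. Of the other named genes, those ranges were -0.007 to 0.018 for Gabbr1, -0.326 to 0.051 for Pomc -0.05 to 0.117 for Rgs4, -0.176 to -0.036 for Cacna2d1, 0.042 to 0.139 for Grk2, 0.002 to 0.07 for Gnao1 and 0.015 to 0.06 for Gnai1. Grk5 was 0.093 and Cacna2d1 -0.176 with the GC and length correction, and Gabbr1 was -0.003 with the GC and length correction, also with the replicate block. Pcsk1n also lost its call without both pools numbered 1 (edgeR adjusted p = 0.216) or 2 (0.221), in a range of 3.91e-27 to 0.221. The count of genes called, 26 in the reported fit, was 330 with DESeq2, 49 without the low-count filter, 17 with the covariate and 0 to 14 with pools left out. With 3 pools a group, the spread between pools limits the precision, and for Pdyn and Pnoc the counts, 10 to 95 per pool, do so too. The covariate and the GC corrections were chosen after seeing the data. The cause of these changes was not tested.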
